A study of Mus musculus with 12 samples.

Results

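Calponins, transgelins and the other regulators of the smooth muscle actin filament were followed here as 10 genes, Cnn1, Cnn2, Cnn3, Tagln, Tagln2, Smtn, Cald1, Srf, Myocd and Mkl1, of the 20775 genes in each expression table. The genes were selected by name, with their measured difference between knockout and control hearts already known, so their values below are a description and carry no test. RNA was sequenced from 12 C57BL/6 mouse samples in 4 groups of 3. Embryonic hearts at E10.5 came from Med30 f/f embryos with Tnnt-Cre, a driver active in embryonic cardiomyocytes (cKO), and from their controls (Ctrl). Cardiomyocytes isolated from adult mice of 3 months, 4 weeks post-TAM (tamoxifen), came from Med30 f/f mice with the tamoxifen-inducible, cardiomyocyte-specific αMHC-MerCreMer (icKO) and from their controls. The labels call the control mice wild type and the study describes them as Cre-negative Med30 f/f littermates, so an effect of Cre itself cannot be told apart from the loss of Med30. MED30 is a subunit of Mediator, the complex that passes signals from DNA-bound factors to RNA polymerase II.

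Calponins and transgelins are related small proteins that bind actin filaments. Calponin 1 (Cnn1) and transgelin (Tagln, also called SM22) mark differentiated smooth muscle, and both are also made for a time by the embryonic heart muscle. Calponins 2 and 3 and transgelin 2 are found in many non-muscle cells. Caldesmon (Cald1) holds back myosin on the actin filament, and smoothelin (Smtn) binds the filaments of contractile cells. Serum response factor (Srf) binds the CArG box, a short DNA motif near many genes of the contractile apparatus and the cytoskeleton. Its partner myocardin (Myocd) is made in heart and smooth muscle, and its partner MRTF-A (Mkl1, now named Mrtfa) enters the nucleus when monomeric actin is used up. A separate set of partners, the ternary complex factors, directs Srf to immediate early genes such as Fos and Egr1.

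The proximal promoters of Srf, Cnn2 and Cnn1 are printed because Srf encodes the factor that reads the motif and Cnn1 and Cnn2 are the calponins with the largest differences in the adult knockout. Each stretch starts 250 bases before the RefSeq start site and ends where the annotated gene begins, is read 5′ to 3′ along the gene in GRCm38.p6, and has exact CArG boxes in capitals. The Srf stretch is chr17:46556176-46556412 on the minus strand, the Cnn2 stretch chr10:79988350-79988583 on the plus strand and the Cnn1 stretch chr9:22099003-22099215 on the plus strand.
Srf: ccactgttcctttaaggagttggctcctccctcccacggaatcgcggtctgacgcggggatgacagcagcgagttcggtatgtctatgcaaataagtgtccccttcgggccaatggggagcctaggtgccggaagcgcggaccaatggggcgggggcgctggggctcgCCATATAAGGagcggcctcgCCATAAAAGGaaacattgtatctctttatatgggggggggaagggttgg
Cnn2: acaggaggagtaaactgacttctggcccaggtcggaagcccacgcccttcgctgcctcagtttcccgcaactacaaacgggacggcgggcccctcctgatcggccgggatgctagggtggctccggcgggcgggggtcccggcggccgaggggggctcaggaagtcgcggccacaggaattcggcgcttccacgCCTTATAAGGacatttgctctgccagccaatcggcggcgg
Cnn1: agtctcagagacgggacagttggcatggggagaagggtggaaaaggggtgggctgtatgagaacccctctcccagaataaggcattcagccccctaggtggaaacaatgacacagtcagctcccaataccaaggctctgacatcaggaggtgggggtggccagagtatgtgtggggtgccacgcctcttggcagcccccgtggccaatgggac
Srf held 2 exact CArG boxes, CCATATAAGG at 82 to 73 bases and CCATAAAAGG at 62 to 53 bases before its start. Cnn2 held 1, CCTTATAAGG at 56 to 47 bases before its start. The first Srf box and the Cnn2 box also contain the letters TATAA, so they overlap a TATA-like element. The Cnn1 window held none, which says only that these letters are not in this window. The RefSeq table had windows for 8 of the 10 genes, and Srf and Cnn2 were the 2 with an exact box. Because the motif reads the same on both strands, 1 search covered both. Among all 27025 genes of the table, 488 (1.81%) had an exact box in a window of 300 bases, 250 before and 50 after the start. Allowing 1 mismatch in the 4 outer bases raised that share to 15.8% and added Cald1 to the genes with a match. A match in sequence does not show that Srf binds there.

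The 10 genes lie on 8 chromosomes (GRCm38, GENCODE M21). Among the calponins, Cnn1 spans chr9:22099216-22109630 and Cnn2 chr10:79988584-79996062, and Cnn3 spans chr3:121426497-121458207, all on the plus strand. Tagln shares its chromosome with Cnn1, and Tagln2 spans chr1:172500047-172507380 on the plus strand. Cald1 spans chr6:34598500-34775473 on the plus strand and Smtn chr11:3517523-3540612 on the minus strand. Srf (chr17:46548329-46556175), Myocd (chr11:65176561-65269989) and Mkl1 (chr15:81012281-81190757) are on the minus strand.

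The Med30 transcript followed the labels. At E10.5 its level was 10.6, 13.3 and 11.3 RPKM (reads scaled to transcript length and to sequencing depth) in Ctrl and 1.38, 2.02 and 1.004 RPKM in cKO hearts. At 4 weeks it was 7.66, 7.45 and 7.66 RPKM in Ctrl and 3.81, 3.16 and 1.83 RPKM in icKO cardiomyocytes. Estimated depth was 13.7 to 20.07 M reads (M, 10 to the sixth power) per E10.5 sample and 11.97 to 17.66 M per adult sample. In the adult table the 20 most abundant genes took 24.2% to 24.8% of the summed RPKM in Ctrl and 10.7% to 12.2% in icKO samples. There the 9517 genes tested had a median difference of 0.57 on the log2 scale, so the adult differences of the 10 genes are also given relative to that median. At E10.5 the median over 10885 genes was −0.13. Fold changes were computed as knockout minus Ctrl on log2(RPKM + 0.1), which understates the change of genes near zero, and are given with the SE of the limma fit. A gene was called when its adjusted p was under 0.05 and its log2 fold change beyond 1 in either direction.

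In E10.5 hearts Cnn1 was the 1 gene of the 10 that was called. Mean levels in Ctrl hearts ran from 127.2 RPKM for Tagln through 97.9 for Cnn2, 68.7 for Cnn3, 59.3 for Tagln2 and 52.3 for Cnn1 down to 3.06 for Mkl1. Neighbours in that order overlapped between Tagln and Cnn2, among Cnn3, Tagln2 and Cnn1, and between Cald1 and Srf. In adult Ctrl cardiomyocytes the order was different. The regulators Srf (18.3 RPKM) and Myocd (17.4 RPKM) and the filament protein Smtn (15.0 RPKM) led, overlapping one another, and Cnn1 was last at 0.167 RPKM. The stages were sequenced as different material and their tables were made separately, so the levels are set side by side without a test.

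**Figure D1:**
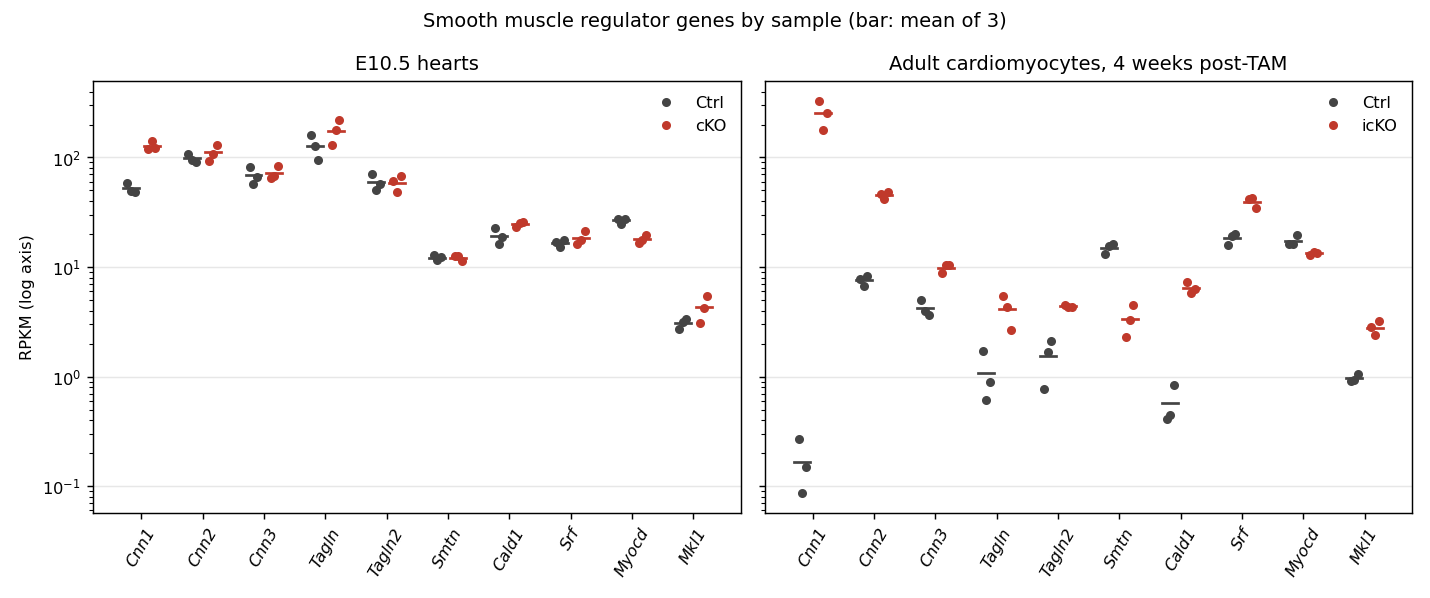
Level of the 10 genes in each sample, in RPKM on a log axis, in E10.5 hearts (left) and adult cardiomyocytes (right). Points are samples (Ctrl grey, knockout red) and bars the mean of 3. In the adult panel Cnn1 lies between 0.086 and 0.267 RPKM in Ctrl and between 179.7 and 330.1 RPKM in icKO, while Smtn and Myocd are the 2 genes with every icKO point below every Ctrl point.

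Cnn1 was higher in both knockouts. At E10.5 it measured 58.9, 49.6 and 48.5 RPKM in Ctrl and 118.8, 142.3 and 121.6 RPKM in cKO hearts. The groups were far apart, and the difference was 1.29 ± 0.131 on the log2 scale, a ratio of means of 2.44. In adult Ctrl cardiomyocytes the gene was close to absent, at 0.267, 0.086 and 0.148 RPKM. Taken over its longest annotated transcript, these levels equal about 8.4, 3.6 and 5.9 reads, and 3 reads would correspond to 0.071 to 0.095 RPKM. The icKO cardiomyocytes measured 330.1, 179.7 and 253.1 RPKM, which made Cnn1 the most abundant of the 10 genes there. The difference, 9.34 on the log2 scale relative to the median gene, rests on that small number of Ctrl reads. The mean icKO level of 254.3 ± 75.2 RPKM (SD, n = 3) exceeded the mean cKO level of 127.6 ± 12.8 RPKM (SD, n = 3) in the embryonic table.

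Cnn2 and Cnn3 were called in the adult table and not at E10.5. Cnn2 measured 108.0, 94.0 and 91.7 RPKM in E10.5 Ctrl and 93.7, 108.4 and 131.3 RPKM in cKO hearts, and the groups overlapped. In adult cardiomyocytes it measured 7.77, 6.76 and 8.20 RPKM in Ctrl against 46.3, 42.0 and 48.6 RPKM in icKO. The 3 icKO samples lay close together and far above Ctrl, with a log2 fold change of 2.58 ± 0.101, or 2.01 relative to the median gene. Cnn3 measured 81.7, 57.5 and 66.8 RPKM in E10.5 Ctrl and 65.1, 68.3 and 83.4 RPKM in cKO hearts, again overlapping. In the adult table it measured 4.99, 4.00 and 3.62 RPKM in Ctrl and 8.89, 10.3 and 10.4 RPKM in icKO. The adult groups did not overlap, but the log2 fold change of 1.22 ± 0.135 was 0.65 relative to the median, and with median-ratio scaling between samples it became 0.69 and was no longer called.

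The make-up of the calponin family differed between the groups. Summed over the 3 genes, calponin levels were 201 to 249 RPKM in E10.5 Ctrl and 278 to 336 RPKM in cKO hearts. In E10.5 Ctrl hearts Cnn1 supplied 23.4% to 24.6% of that sum, Cnn2 43.4% to 46.7% and Cnn3 28.6% to 32.9%. In cKO hearts the Cnn1 share was 36.2% to 44.6%. In adult Ctrl cardiomyocytes the sum was 10.8 to 13.0 RPKM, of which Cnn2 supplied 59.7% to 68.5% and Cnn1 0.793% to 2.05%. In icKO cardiomyocytes the sum was 232 to 385 RPKM and Cnn1 supplied 77.4% to 85.7% of it. These shares are ratios within a sample, so scaling between samples does not enter them.

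**Figure D2:**
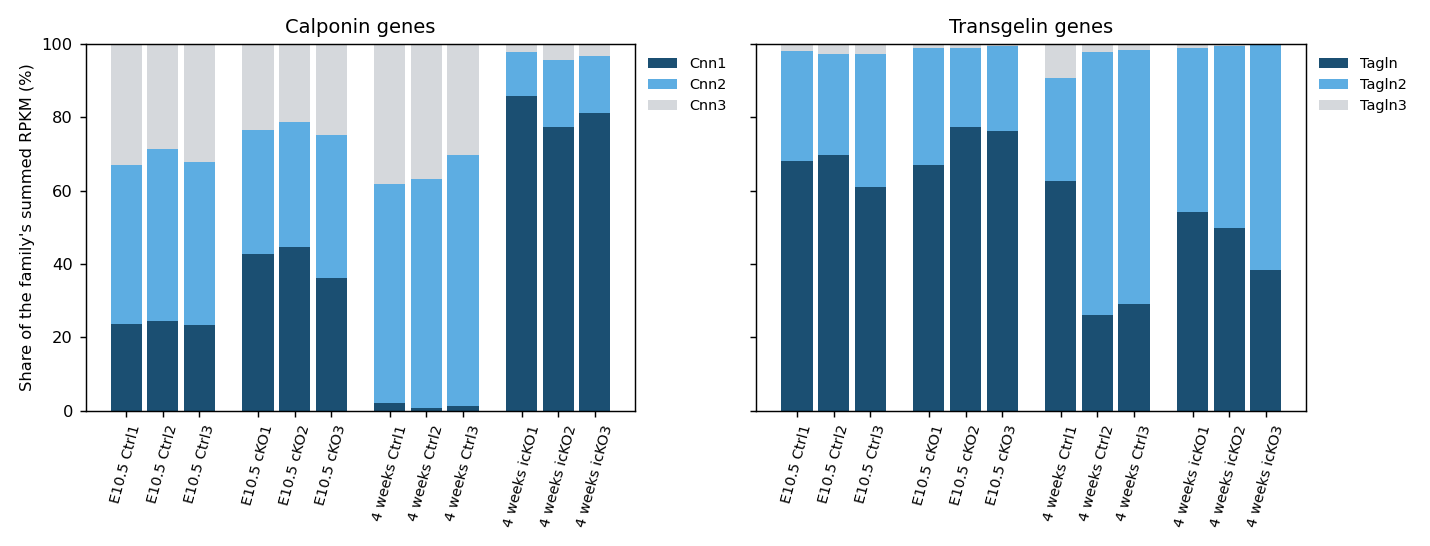
Share of each family's summed RPKM (vertical axis, %) supplied by each calponin gene (left) and each transgelin gene (right), 1 bar per sample. Cnn1 takes 0.793% to 2.05% of the calponin sum in adult Ctrl and 77.4% to 85.7% in icKO cardiomyocytes, whereas the Tagln and Tagln2 shares of adult Ctrl and icKO samples overlap.

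The transgelins did not follow calponin 1 to a comparable level. Tagln measured 159.5, 126.3 and 95.8 RPKM in E10.5 Ctrl and 128.8, 176.5 and 221.6 RPKM in cKO hearts. The samples of each group were widely spread and the groups overlapped. In adult cardiomyocytes Tagln measured 1.72, 0.609 and 0.891 RPKM in Ctrl and 5.48, 4.29 and 2.68 RPKM in icKO. Every icKO sample was above every Ctrl sample, with a log2 fold change of 1.91 ± 0.359, or 1.35 relative to the median gene, yet the icKO mean of 4.15 RPKM remained far under the E10.5 levels and under the icKO mean of Cnn1. Tagln lies on chr9:45929619-45936058 (GRCm38, minus strand) and overlaps Pcsk7 on the other strand, so a part of its reads could belong to that gene if strand was not used in counting.

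Tagln2 measured 70.6, 50.3 and 57.2 RPKM in E10.5 Ctrl and 61.0, 48.8 and 67.5 RPKM in cKO hearts, with means of 59.3 and 59.1 RPKM. In the adult table it measured 0.767, 1.69 and 2.13 RPKM in Ctrl and 4.54, 4.28 and 4.29 RPKM in icKO. The icKO samples were nearly equal and the Ctrl samples more widely spread, and the log2 fold change was 1.56 ± 0.304, or 1.0 relative to the median gene. Tagln3, the neuronal member of the family, was under 1 RPKM in adult samples and supplied at most 9.48% of the transgelin sum in any of them. Tagln supplied 26.0% to 62.6% of that sum in adult Ctrl and 38.5% to 54.2% in icKO cardiomyocytes.

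Caldesmon and smoothelin differed from Ctrl in opposite directions in adult cardiomyocytes. Cald1 measured 0.412, 0.450 and 0.846 RPKM in Ctrl and 7.37, 5.80 and 6.24 RPKM in icKO, a log2 fold change of 3.34 ± 0.242, or 2.78 relative to the median gene. At E10.5 it measured 22.5, 16.3 and 18.7 RPKM in Ctrl and 23.0, 25.4 and 25.5 RPKM in cKO. The embryonic groups did not overlap, but by a narrow margin, and the gene was not called there, with a log2 fold change of 0.37 ± 0.133. Smtn was the 1 gene of the 10 called lower. It measured 13.3, 15.6 and 16.2 RPKM in adult Ctrl and 2.31, 3.27 and 4.46 RPKM in icKO, a log2 fold change of −2.18 ± 0.208, or −2.74 relative to the median gene. At E10.5 its levels were 12.8, 11.5 and 12.2 RPKM in Ctrl and 12.6, 12.7 and 11.3 RPKM in cKO, and the group means were equal at 12.2 RPKM.

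Among Srf and its partners, Srf measured 17.0, 15.3 and 17.6 RPKM in E10.5 Ctrl and 16.1, 17.7 and 21.2 RPKM in cKO hearts, which overlapped. In adult cardiomyocytes it measured 15.9, 19.1 and 19.9 RPKM in Ctrl and 41.5, 42.5 and 34.9 RPKM in icKO. The log2 fold change of 1.11 ± 0.114 was 0.54 relative to the median gene, and with median-ratio scaling it was 0.57 and not called. Myocd was the 1 gene of the 10 with every knockout sample below every Ctrl sample at both stages. It measured 27.4, 24.7 and 27.7 RPKM in E10.5 Ctrl and 16.5, 17.6 and 19.8 RPKM in cKO, a log2 fold change of −0.57 ± 0.113. In the adult table it measured 16.3, 16.2 and 19.7 RPKM in Ctrl and 12.9, 13.8 and 13.5 RPKM in icKO, a log2 fold change of −0.37 ± 0.0999. Neither difference reached the fold needed for a call, although relative to the median gene the adult value was −0.94.

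Mkl1 measured 2.69, 3.12 and 3.36 RPKM in E10.5 Ctrl and 3.10, 4.27 and 5.46 RPKM in cKO, with overlap. In the adult table it measured 0.918, 0.936 and 1.07 RPKM in Ctrl and 2.82, 2.38 and 3.19 RPKM in icKO. The log2 fold change of 1.42 ± 0.171 was 0.86 relative to the median gene. It became 0.92 with median-ratio scaling and 0.94 with a pseudocount of 1, and it was called under neither. Mkl1 overlaps Sgsm3, so reads of the pair could be shared. Mkl2, which encodes the related MRTF-B, measured a mean of 5.65 RPKM in adult Ctrl and 6.02 RPKM in icKO.

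Over the 10 genes, 1 was called higher at E10.5, Cnn1, and none lower, where 0.239% of all genes tested were called higher and 0.542% lower. Median-ratio scaling turned the split over all genes at E10.5 from 26 higher and 59 lower to 35 and 41. Every cKO sample was above every Ctrl sample for 2 of the genes and below for 1, beside 6.50% and 22.6% of all genes. At 4 weeks 8 were called higher and 1 lower, where 28.0% of all genes were called higher and 8.45% lower. Every icKO sample was above every Ctrl sample for 8 and below for 2, beside 62.0% and 18.9% of all genes. Median-ratio scaling turned the adult split over all genes from 2668 higher and 804 lower to 1078 and 1518, and that of the 10 genes to 5 higher and 1 lower. The study, with DESeq2 on counts and the same thresholds, reported more genes lower than higher in these cardiomyocytes, as under median-ratio scaling here. Cnn1, Cald1 and Mkl1 had Ctrl means under 1 RPKM and passed the filter on low levels (mean above 1 RPKM) only through the icKO samples. The median log2 fold change of the 10 genes was 0.15 at E10.5 and 1.49 at 4 weeks. Since these contrasts were known when the genes were picked, nothing is read from the counts. Whether a gene's difference was larger in the adult than in the embryo was not tested.

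**Figure D3:**
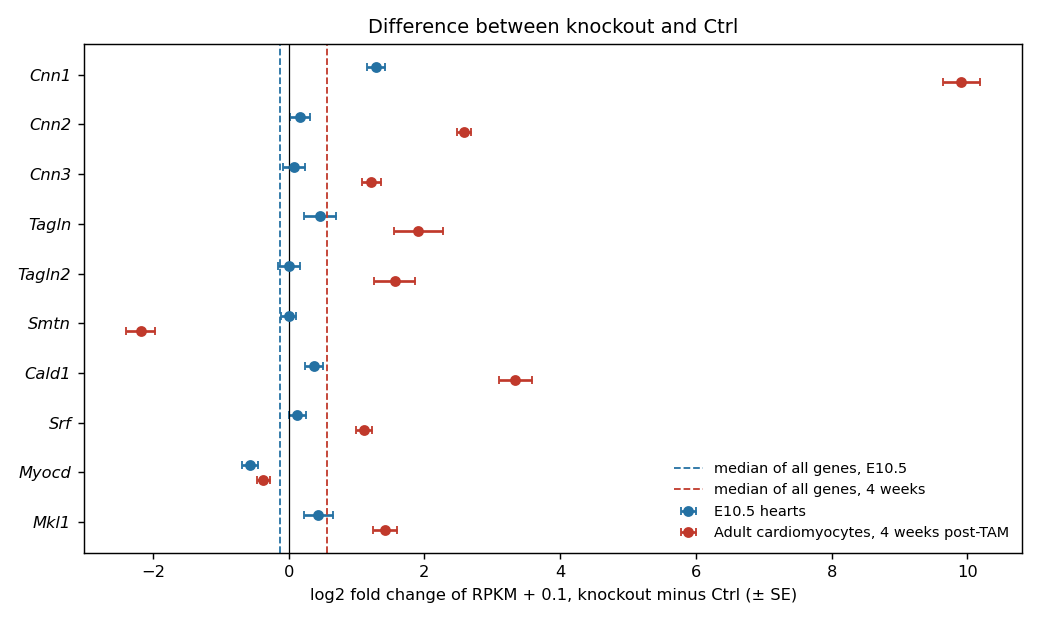
Log2 fold change of RPKM + 0.1 (horizontal axis, knockout minus Ctrl, bars ± SE of the fit) for the 10 genes in E10.5 hearts (blue) and adult cardiomyocytes (red). Dashed lines mark the median of all genes, −0.13 at E10.5 and 0.57 at 4 weeks. Cnn1 at 9.91 and Smtn at −2.18 are the ends of the adult range.

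The genes whose difference from Ctrl over the 12 samples lay nearest to that of Cnn1, by Euclidean distance among 8908 genes, were S100a11, Carhsp1, Postn, Synm and Cpne2. Their distances of 7.29 to 8.43 were large, because none reached the adult log2 fold change of Cnn1. S100a11 came closest at 5.84 with mean levels of 1.30 RPKM in Ctrl and 82.5 RPKM in icKO. Carhsp1, Postn, Synm and Cpne2 had adult Ctrl means of 0.964, 0.367, 0.38 and 0.109 RPKM. Like Cnn1, they passed the adult filter on low levels only through the icKO samples. The distances from Cnn1 also rest on its small number of adult Ctrl reads. For Tagln the nearest were Suco, Ccdc80, Pde8a, Lrrc8d and Atf6, at distances of 1.10 to 1.18. No gene therefore lay as near to Cnn1 as these lay to Tagln. The likeness says nothing of shared function.

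Other genes of the contractile and actin pathways were counted from 5 lists that leave out the 10 genes above. Lists overlap in some genes, and joined they hold 96 genes. At E10.5, 86 were tested, 3 were called higher (3.49%) and 2 lower (2.33%), and with median-ratio scaling 4 and 1. Over all genes tested 0.239% were called higher and 0.542% lower. Acta1, the skeletal actin of embryonic hearts, measured 111.9, 117.7 and 112.6 RPKM across Ctrl samples. It rose to 261.9, 341.9 and 260.5 RPKM with cKO (log2 fold change 1.32 ± 0.15, limma adjusted p = 0.00409). Lmod1, a smooth muscle leiomodin that nucleates actin filaments, rose by 1.45 ± 0.252 (limma adjusted p = 0.0229), and Pdlim7, a PDZ-LIM protein of actin bundles, by 1.02 ± 0.159 (limma adjusted p = 0.0182). Egr1 fell by 1.80 ± 0.368 (limma adjusted p = 0.0315). Hopx, a homeodomain protein that restrains Srf, fell by 1.05 ± 0.139 (limma adjusted p = 0.00974), but with median-ratio scaling its change was −0.93 and not called, nor was it with the other scalings (−0.86 and −0.88). The call of Acta1 was the 1 of these 5 that held whichever sample was left out. Without Ctrl 1 or without Ctrl 3 the other 4 calls were lost, with Lmod1 at 1.53 and 1.27, Egr1 at −1.68 and −1.44, Hopx at −0.98 and −0.99 and Pdlim7 beyond 1 in both. Pdlim7 was also not called without Ctrl 2 (0.91), Pdlim7 (1.02), Egr1 (−1.95) and Hopx (−0.99) without cKO 1, and Lmod1 (1.43), Pdlim7 (0.89) and Egr1 (−1.83) without cKO 2. Lmod1 and Egr1 were also not called with no filter on low levels or without the trend of the fit, and Pdlim7 not with a pseudocount of 1 or with sample weights (0.98).

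At 4 weeks 81 of the 96 genes were tested, 38 were called higher and 13 lower, against 26 and 16 with median-ratio scaling. The shares over all genes tested were 28.0% called higher and 8.45% lower, and median-ratio scaling gave 1078 genes higher and 1518 lower. Of the smooth muscle contractile list 10 genes were called higher and 2 lower with median-ratio scaling. Without that scaling 13 of its 18 tested genes rose and 2 fell, with a median log2 fold change of 2.39 beside 0.57 for all genes. Those that rose most were Synm (synemin, an intermediate filament protein; 5.20 ± 0.199, limma adjusted p = 1.98e-07), Actn1 (non-muscle alpha-actinin; 4.47 ± 0.133, limma adjusted p = 8.11e-08), Tpm2 (beta-tropomyosin; 3.92 ± 0.297), Flna (filamin A; 3.66 ± 0.201), Pdlim7 (3.33 ± 0.0823) and Tgfb1i1 (Hic-5, a focal adhesion protein; 3.10 ± 0.336). Several of these are general parts of the cytoskeleton rather than markers of smooth muscle. Synm, Tpm2 and Tgfb1i1 had Ctrl means of 0.38, 0.494 and 0.167 RPKM. They passed the filter on low levels only through the icKO samples, so they could be tested only because they were higher there. Some genes more restricted to smooth muscle, picked here after their values were seen, were too low to be tested. Myh11, the smooth muscle myosin heavy chain, measured 0.391, 0.276 and 0.340 RPKM in Ctrl and 1.20, 0.653 and 0.621 RPKM in icKO, so every icKO sample was above every Ctrl sample, but the gene did not pass the filter on low levels. Acta2, smooth muscle actin, measured 49.0, 63.5 and 31.9 RPKM in Ctrl and 27.6, 37.0 and 42.7 RPKM in icKO, which overlapped (log2 fold change −0.39 ± 0.241, limma adjusted p = 0.16). Lmod1, Mylk, Actg2 and Kcnmb1 did not pass the filter in the adult table either. Their ratios of mean icKO to mean Ctrl RPKM were 1.76, 1.98, 2.72 and 3.12. These ratios rest on Ctrl means of 0.0663, 0.335, 0.0867 and 0.02 RPKM, and Lmod1 and Kcnmb1 overlapped between the groups. Itga8 and Ppp1r14a, also untested, had ratios of 2.16 and 9.1 from Ctrl means of 0.041 and 0.0743 RPKM.

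Targets reached through actin and the MRTF partners of Srf and those reached through the ternary complex factors had unlike counts. The shares to set beside them, over all genes tested at 4 weeks, are 28.0% called higher and 8.45% lower. Of the actin and MRTF-SRF targets 19 of 33 tested were called higher and 5 lower, with a median log2 fold change of 1.28. Beside genes already named, Capg rose by 3.28 ± 0.49 and Zyx, the focal adhesion protein zyxin, by 3.14 ± 0.136. Capg had a Ctrl mean of 0.198 RPKM and passed the filter on low levels only through the icKO samples. Fhl2, a LIM protein abundant in adult heart muscle, measured 660.4, 509.1 and 733.6 RPKM across Ctrl samples. It fell to 51.1, 60.8 and 46.9 RPKM with icKO (log2 fold change −3.57 ± 0.144, limma adjusted p = 2.21e-07). Of the ternary complex targets 1 of 9 tested was called higher and 3 lower, with a median of −0.52. Fos fell by 2.98 ± 0.324, Egr1 by 2.6 ± 0.25 and Ier2 by 1.40 ± 0.229 on the log2 scale, while Dusp5, a MAP kinase phosphatase, rose by 1.24 ± 0.194 (limma adjusted p from 1.47e-05 to 0.000415 for the 4). With median-ratio scaling 13 targets of the first kind were called higher and 5 lower, and none of the second kind higher and 5 lower. The difference between the lists was not tested.

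Among Srf cofactors and calponin family relatives 1 of 7 tested genes was called higher and 3 lower at 4 weeks, beside 28.0% and 8.45% of all genes. Mamstr, an MRTF-like coactivator of muscle, fell by 2.17 ± 0.244, Hopx by 1.95 ± 0.104 and Smtnl2, a smoothelin relative, by 1.33 ± 0.24, which was −0.72 and not called with a pseudocount of 1. Elk3, a ternary complex factor, rose by 1.31 ± 0.445 (limma adjusted p = 0.0231), a call lost with every other scaling, with a pseudocount of 1 (0.66) and without Ctrl 1 (0.78), icKO 2 (1.29) or icKO 3 (1.22). Elk3 had a Ctrl mean of 0.703 RPKM and passed the filter on low levels only through the icKO samples. Mamstr and Smtnl2 had icKO means of 0.33 and 0.592 RPKM and passed it only through the Ctrl samples. Of the RhoA and actin dynamics list 10 of 21 tested genes were called higher and none lower, with a median of 0.94. Cfl1, non-muscle cofilin, rose by 2.83 ± 0.132, Arpc5 by 2.30 ± 0.0903, the thymosins Tmsb4x and Tmsb10 by 2.03 ± 0.197 and 2.02 ± 0.241, and the formin Diaph1 by 1.74 ± 0.142. With median-ratio scaling 7 of the list were called higher and 1 lower.

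**Figure D4:**
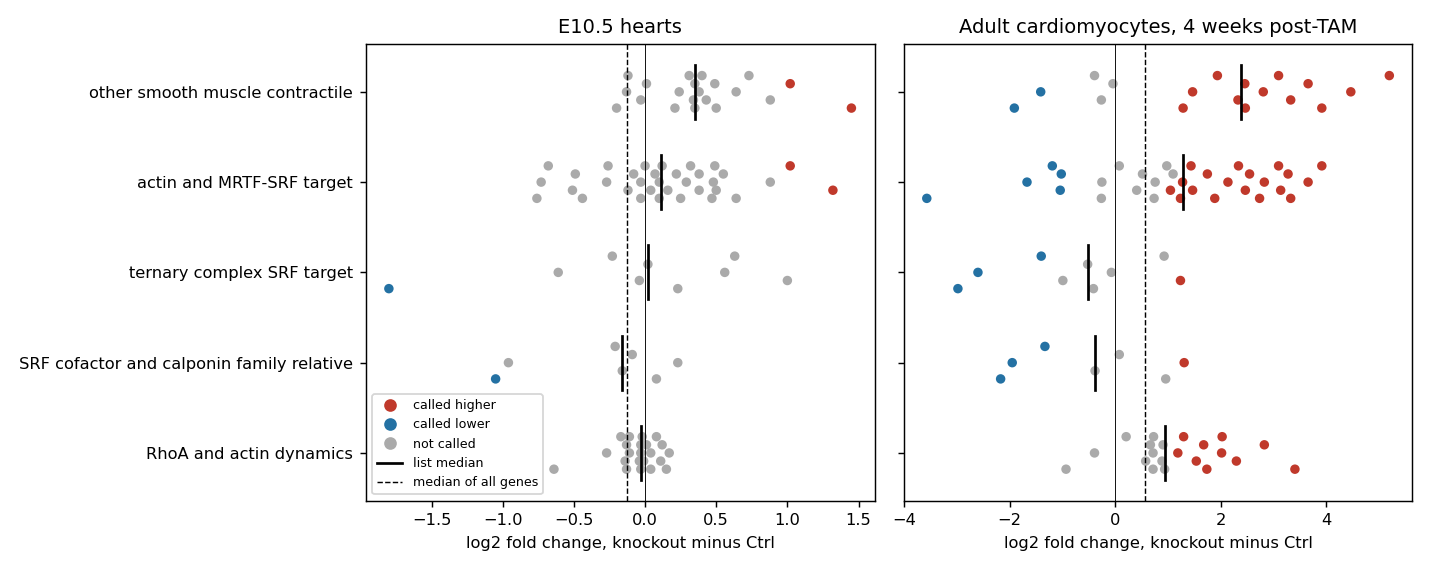
Log2 fold change (horizontal axis, knockout minus Ctrl) of each tested gene of the 5 lists, at E10.5 (left) and 4 weeks (right). Red points were called higher, blue lower and grey not called; the short bar is the median of a list and the dashed line that of all genes. At 4 weeks the smooth muscle contractile median is 2.39 and the ternary complex median −0.52.

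Exact CArG boxes were found in the promoter windows of 13 of the 82 genes of these lists that the table holds (15.9%, beside 1.81% of all genes). Many were listed because they are known Srf targets, so that share is no independent evidence. Holders of a box did not share 1 direction at 4 weeks. Myl9, Myl6, Vcl, Fhl1 and Dusp5 were called higher, and Actg1, Actc1, Fhl2 and Hopx lower. Vcl, Fhl1 and Dusp5 were not called with median-ratio scaling (0.93, 0.74 and 0.72), nor was Dusp5 with a pseudocount of 1 (0.92).

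In the adult samples the summed levels of some marker lists of other cell types were higher in icKO. Those of endothelial and epicardial markers overlapped between the groups. Over all genes tested at 4 weeks, 28.0% were called higher and 8.45% lower. Because the samples are bulk RNA, fewer cells of a type and less RNA per cell cannot be told apart. Of 10 smooth muscle and pericyte markers 5 were tested at 4 weeks and 3 were called higher, Mcam (4.74 ± 0.351), Cspg4 (2.20 ± 0.149) and Pdgfrb (1.26 ± 0.358). The summed level of the 10 markers was 51.6 to 75.1 RPKM in Ctrl and 77.8 to 123.1 RPKM in icKO, most of it Acta2 in Ctrl. Mcam measured 0.765, 0.903 and 1.62 RPKM in Ctrl and 39.9, 17.4 and 40.5 RPKM in icKO, and so supplied much of the difference in the sums. The mean of Acta2 was 48.1 RPKM in Ctrl and 35.8 RPKM in icKO, with overlap. No marker of the list was at 0 in all samples. Of 8 fibroblast markers 4 were tested and 4 rose, with sums of 5.09 to 8.76 RPKM in Ctrl and 36.6 to 62.5 RPKM in icKO. Of 6 activated fibroblast markers Postn and Fn1 were tested and rose, with sums of 0.970 to 1.22 RPKM and 29.9 to 36.7 RPKM. Tcf21, Cthrc1 and Fap stayed under 1 RPKM in every sample. Ctrl means were 0.963 RPKM for Pdgfrb, 0.435 for Col1a1, 0.703 for Col1a2, 0.909 for Col3a1, 0.367 for Postn and 0.66 for Fn1. These markers passed the filter on low levels only through the icKO samples. They could be tested only because they were higher there, so nothing is read from the counts of those that rose.

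Endothelial markers had 1 of 8 called higher at 4 weeks, with sums of 9.91 to 29.5 RPKM in Ctrl and 26.6 to 49.5 RPKM in icKO. Of 7 macrophage markers 1 was tested and it rose, with sums of 1.98 to 3.39 RPKM and 4.38 to 8.06 RPKM. None of 6 epicardial markers was high enough to be tested. Cardiomyocyte markers had the highest sums, 21132 to 22503 RPKM in Ctrl and 8618 to 10938 RPKM in icKO, and 5 of 8 were called lower. At E10.5 none of the markers of smooth muscle, fibroblasts, endothelium or epicardium was called. Smooth muscle and pericyte sums there were 392.3 to 431.1 RPKM in Ctrl and 490.4 to 578.0 RPKM in cKO. Most of each sum was Acta2, with means of 366.3 RPKM in Ctrl and 468.1 RPKM in cKO. Myh11, Kcnj8, Vtn and Higd1b stayed under 1 RPKM in every E10.5 sample. Of 2 macrophage markers tested at E10.5, 1 was called lower, beside 0.542% of all genes, and neither was called with median-ratio scaling. With median-ratio scaling the adult calls were 2 smooth muscle and pericyte markers (Cspg4 and Mcam), 3 fibroblast markers and both activated fibroblast markers higher, no endothelial or macrophage marker, and 7 cardiomyocyte markers lower. The part of these cells in the differences of the 10 genes was not tested.

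**Figure D5:**
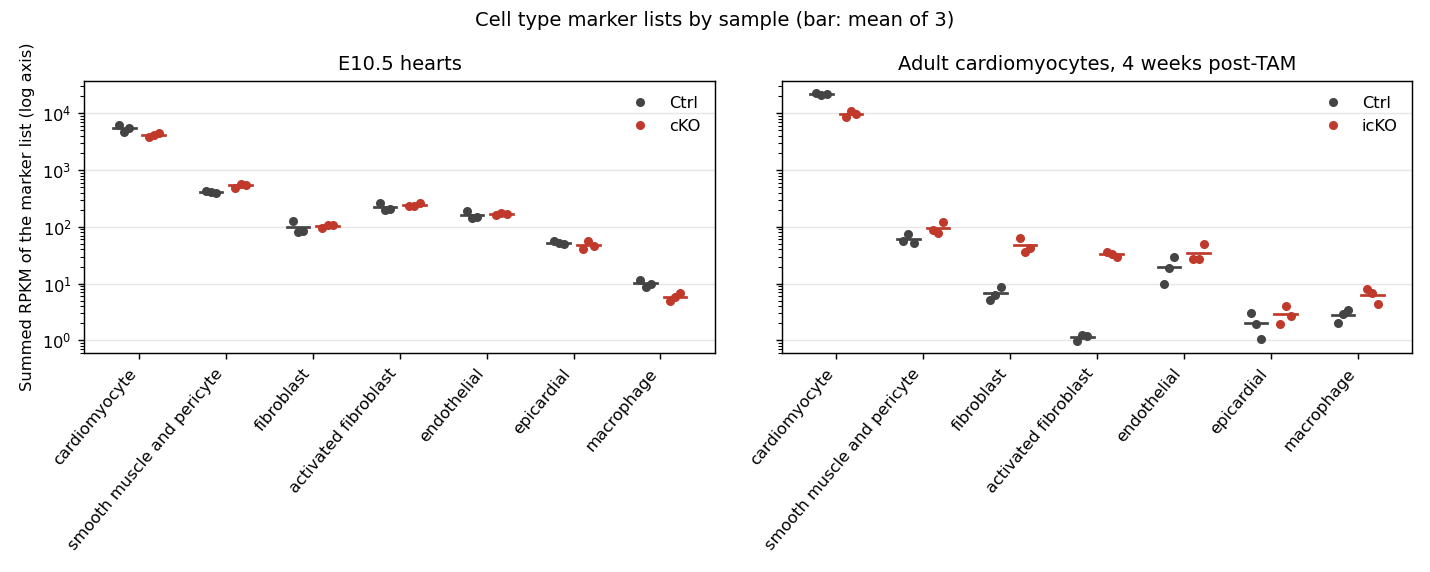
Summed RPKM of each cell type marker list (vertical log axis) by sample, Ctrl grey and knockout red, bars the mean of 3, at E10.5 (left) and 4 weeks (right). In the adult panel the activated fibroblast sum is 0.970 to 1.22 RPKM in Ctrl and 29.9 to 36.7 RPKM in icKO, and cardiomyocyte markers have the highest sums in both groups.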

How the data were processed

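RNA was isolated from E10.5 hearts and from adult cardiomyocytes (labelled as heart), 3 samples per group, and libraries were made after removal of ribosomal RNA. Per the labels, the authors used cutadapt 2.6, STAR 2.5.3a, HOMER 4.11.1 and DESeq2 1.12.4 with mm10. The deposited values are RPKM per gene, 1 table per stage, in which the embryonic knockout columns are named icKO although the labels say cKO. Strand use in counting is not given in the sources used here. Columns of the authors' mean RPKM, log2 fold change and false discovery rate were not used.

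RPKM are not counts, so log2(RPKM + 0.1) was fitted within each table with limma 3.58.1 (R 4.3.3, eBayes with trend) for genes with a mean RPKM over 1 in the 6 samples. Adjustment (Benjamini-Hochberg) covered the whole table of tested genes, with calls at adjusted p below 0.05 together with a log2 fold change past 1 either way. Nothing says which samples came from separate animals or pools, so p-values measure only the spread between these samples. On simulated data 95.2% of 187 changed genes (E10.5) and 96.3% of 189 (4 weeks) were called, with 2 false calls in each. The changed genes were moved by 2 on the log2 scale in either direction, with noise drawn independently for each gene and sample. The other genes were given no shift such as the adult median of 0.57, so false calls under such a shift were not tested. These shares cover only the genes tested there, 10963 for E10.5 and 9114 for 4 weeks. How often a gene with a log2 fold change close to 1 is called was not tested. Depth was estimated from the spacing of low RPKM values of genes with 1 transcript, of which 64.3% to 71.1% fell no more than 0.1 from a whole read (20.0% would do so by chance), too few to recover counts.

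The members and lists were chosen with earlier results of these data known. Named besides the members were Med30, the called genes of each list (up to 6 by size of change; those with a CArG box and those singled out as not called were chosen after their values were seen), the 5 genes nearest to Cnn1 and to Tagln, and markers; 1 gene that this rule names is not reported here. Promoters are RefSeq windows (GRCm38.p6). Scripts ran in Python 3.11.15 with pandas 2.3.3 and numpy 2.4.6. Alternatives were other pseudocounts, filters, scalings and weights, a replicate block, and leaving out each sample.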

Additional observations from a re-analysis of the deposited data

How the results depend on the processing

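No member that was called, and no pathway gene named as called, changed its direction under any alternative. At 4 weeks the members called higher were 8, and 4 with a mean RPKM over 5 (fewer genes tested) and 5 with median-ratio scaling, and they stayed 8 whichever sample was left out. The 1 member called at E10.5 and the 1 called lower at 4 weeks were called under every alternative. All genes called higher at 4 weeks were 1687 with a mean RPKM over 5, 1078 with median-ratio scaling and 1206 with quantile normalization, and 2493 to 2795 with a sample left out. Those called lower were 454, 1518 and 1336, and 760 to 856 with a sample left out. Pathway genes called at 4 weeks were 35 to 42 higher and 10 to 15 lower with a sample left out. At E10.5 all genes called higher were 12 with a pseudocount of 1, 17 with no filter, 9 with a mean RPKM over 5, 48 without the 20 most abundant genes in the scaling, 43 with sample weights, and 9 (without cKO 2) to 36 (without cKO 3) with a sample left out. Those called lower were 36, 35, 34, 36 and 100 under the same settings, 39 with quantile normalization, 38 without trend and 18 (without Ctrl 3) to 102 (without cKO 3) with a sample left out. Pathway genes called at E10.5 were 1 to 3 higher and 0 to 3 lower with a sample left out, and 1 lower with no filter, a mean RPKM over 5, without trend and under each of the 3 other scalings. The cause was not tested.

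Samples of the same number did not deviate together (correlations of 0.012, 0.101 and −0.07 at E10.5 and 0.153, 0.043 and 0.045 at 4 weeks), and not every sample correlated best with its own number. With the replicate block 32 genes were called higher and 61 lower at E10.5 and 2672 and 805 at 4 weeks, and members and pathway genes kept their counts but for 39 pathway genes higher at 4 weeks.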
